A study of Mus musculus with 47 samples.

Results

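Adding telapristone acetate (TPA) to estradiol with progesterone (EP) was examined in sorted luminal progenitor cells of the mouse mammary gland. All columns of this cell fraction from EP+TPA mice were set against all from EP mice, 4 libraries each, which is 8 of the 47 libraries of the series. The mice were of the FVB strain and had been ovariectomized, which removes their own ovarian hormones, and treatment lasted 14 days. EP+TPA mice received estradiol, progesterone and telapristone, and EP mice received both hormones alone. Levels are also given, without a test, for 4 luminal progenitor libraries from mice on EP with mifepristone (EP+RU486) and 4 from sham mice. Each mouse received 1 treatment and gave 1 luminal progenitor library, so replicates are separate animals. Doses are not given in the sources used here, and neither is the gating used for sorting. Libraries were made from small amounts of RNA by full-length cDNA amplification and read as pairs.

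Progesterone acts through its receptor, which in mammary epithelium sits mainly in hormone-sensing luminal mature cells. Those cells release ligands such as RANKL (gene Tnfsf11), Wnt4 and amphiregulin (Areg), and neighbouring cells that lack the receptor respond to the ligands. Luminal progenitors are mostly of the second kind, divide under progesterone and can give rise to milk-secreting alveolar cells. Telapristone and mifepristone, both steroids, block the progesterone receptor, and mifepristone also blocks the glucocorticoid receptor.

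Values are rescaled FPKM, that is fragments per length and depth after a library scaling, and those of single libraries follow the order of mice 312, 323, 328 and 336 for EP+TPA and 306, 311, 322 and 327 for EP. A fold is the difference of mean log2(value + 1), EP+TPA minus EP, with its standard error (SE), and adjusted p values are those of limma with Benjamini-Hochberg adjustment over all genes tested. The words rose and fell are used of adjusted p under 0.05. The deposited values carry an offset by gene, so a steady level need not be expression and folds of low genes are compressed. Marker levels are given to describe the fraction and do not settle its label, since no other sorted fraction was compared. The receptor kinase Kit lay at 32.3 to 73.7 in EP+TPA and 14.3 to 61.0 in EP libraries, and the alveolar transcription factor Elf5 at 16.3 to 28.0 in EP+TPA and 3.91 to 22.5 in EP libraries. Markers of other cell types varied. The luminal mature marker Prlr lay at 32.9 to 40.6 in EP+TPA and 45.5 to 449.9 in EP libraries. Cited1, of the same cell type, lay at 11.5 to 12.5 in EP+TPA and 18.7 to 74.0 in EP libraries. The leukocyte gene Ptprc stayed at or below 0.543 in EP+TPA and 1.05 in EP libraries, but the antigen presentation gene H2-Aa reached 39.0 in EP+TPA and 39.6 in EP libraries. The endothelial gene Plvap lay at 92.7 to 192.8 in EP+TPA and 79.9 to 345.6 in EP libraries, and Pecam1 at 32.5 to 56.2 in EP+TPA and 27.5 to 95.8 in EP libraries. Among adipocyte genes Plin1 sat at its lowest value, 0.588, in 14 of 16 libraries, while Fabp4 was at 283.9 to 323.8 in EP+TPA and 267.7 to 356.3 in EP libraries. Basal keratin Krt14 was 74.2 to 84.4 in EP+TPA and 70.9 to 98.0 in EP libraries.

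A pair of EP libraries stood apart from the other EP libraries. Mouse 311 was close to EP+TPA mice in hormone-sensing genes. Its mean log2 value over the luminal mature list was 3.69, against 3.43 to 3.56 with EP+TPA and 4.87 to 5.57 in the other EP mice. The same library was the highest of the EP mice in the replication list, at 4.0 against 3.17 to 3.81. Mouse 327 had a summed skeletal muscle signal of 274.0, against 5.43 to 11.4 in other EP and 5.69 to 16.9 in EP+TPA libraries, an endothelial sum of 1050.0 against at most 585.3 elsewhere in the 8 libraries, and the lowest progenitor list mean, 4.98. In sorted bulk samples, fewer cells of a type and less RNA per cell cannot be told apart.

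Telapristone changed 2132 of 11585 genes tested (18.4%). There were 863 that rose (7.45%) and 1269 that fell (11.0%), with median log2 folds of 0.79 and -0.86, against -0.01 over all genes. A fold of at least 1 in size was seen for 277 that rose and 513 that fell. Without the library scaling the median of all genes was -0.14, and 540 rose and 2172 fell, so 80.1% of changed genes were lower in place of 59.5%. Without EP mouse 311 the count was 2772 (1148 rose, 1624 fell), without EP mouse 327 it was 1606 (678 rose, 928 fell), and without both, a choice made after seeing the data, it was 2100 (930 rose, 1170 fell). Without EP mouse 306 it was 1397 (586 rose, 811 fell). The values of EP+TPA and EP libraries did not overlap for 1411 of the changed genes, and for 1760 of all genes tested (15.2%). When the EP+TPA and EP libraries alone were fitted, 940 genes passed. Of the named genes that passed, 31 then lost their call, with adjusted p of 0.0537 to 0.185. They included Jak2, Cdh3, Cd24a, Ern1, Scd2, Ndufa1, Cox5a and Rora, and Hey1, Hey2, Tcf7, Fosb, Bst2, Psmb8, Ncoa1, Fkbp5, Nr3c1, Nrg1, Sox10, Mbp, Herpud1, Pdia6 and Hlf, which also lost it under other alternatives. For 548 of the 721 changed genes with overlap, the overlap ended when EP mouse 311 was left out.

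**Figure D1:**
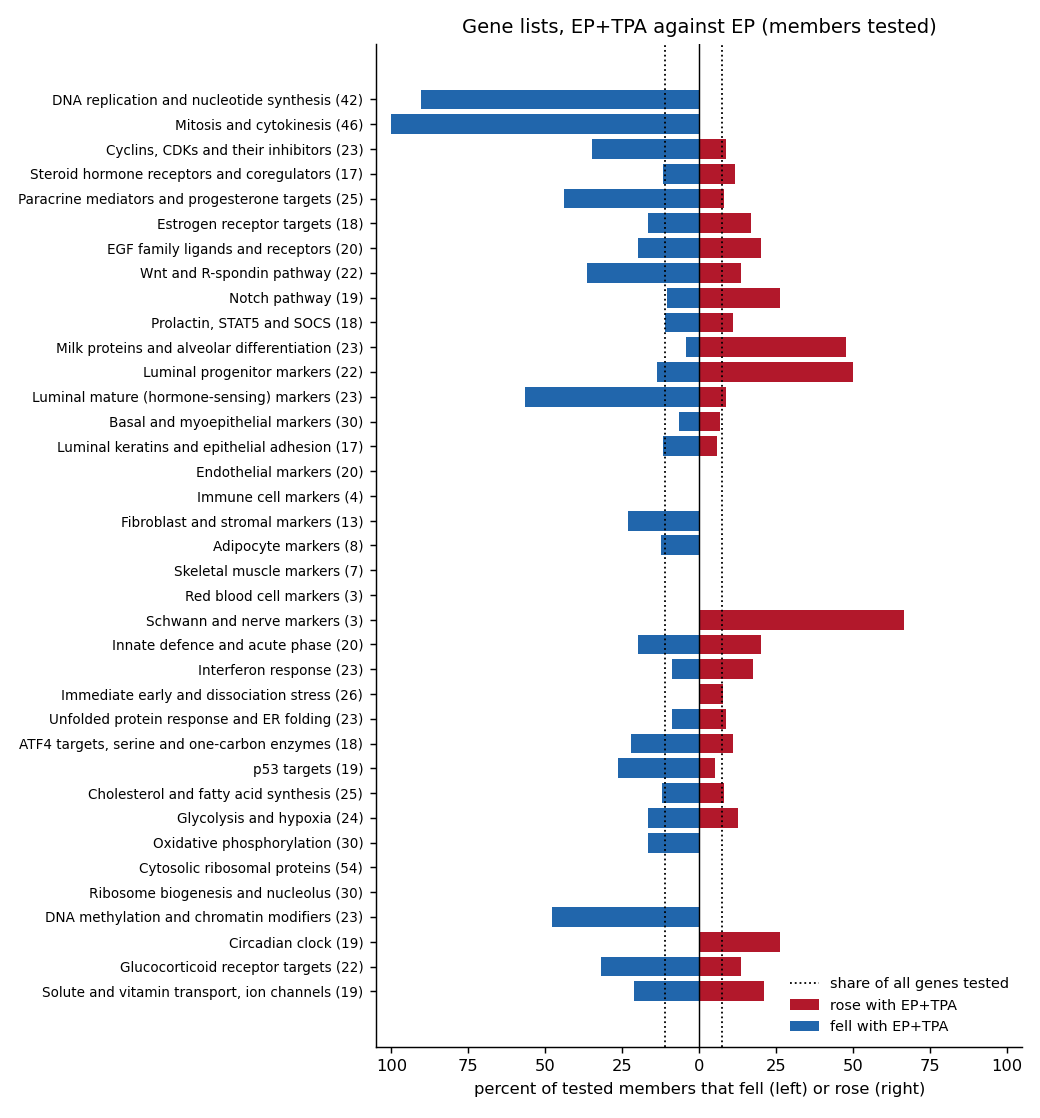
Share of tested members of each of 37 gene lists that fell (left) or rose (right) with EP+TPA relative to EP, in percent, with the number tested in brackets. Dotted lines mark the shares over all genes, 11.0% fell and 7.45% rose. The mitosis and replication lists reach 100% and 90.5% fallen, and the progenitor and milk lists have the longest bars to the right among lists of at least 4 tested members.

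The most uniform change was a fall of genes for DNA synthesis and cell division. All 46 tested members of the mitosis list fell (48 listed), with a median log2 fold of -1.64, and 38 of 42 replication and nucleotide synthesis genes fell, with a median of -1.10 and none higher. Between 45 and 46 mitosis genes and between 35 and 38 replication genes fell when single libraries were left out. Without EP mouse 311 or 327, 45 mitosis genes were tested and 45 fell. Over all alternatives, which changed the number tested, 16 to 48 mitosis genes and 25 to 41 replication genes fell. For some members the filter fixed the direction, since they reached 1 only in EP libraries. Mybl2 was at 2.46 to 4.21 with EP and at most 0.869 elsewhere. Uhrf1, which reads hemimethylated DNA at replication forks, was at 2.14, 1.60, 1.68 and 1.92 in EP+TPA libraries, against 19.3, 21.8, 14.8 and 10.4 in EP libraries. Every EP+TPA library lay below every EP library, which the rule that picked the top 15 falling genes required. The fold was -2.59 (SE 0.18, adjusted p 7.96e-07, n = 4 per group in limma). Rrm2, the ribonucleotide reductase subunit that makes DNA precursors, stood at 2.42, 1.77, 1.27 and 2.07 with EP+TPA and at 17.8, 20.3, 14.0 and 20.5 with EP (fold -2.73, SE 0.23). Mcm2, part of the replicative helicase, was at 7.30, 7.03, 7.47 and 6.81 with EP+TPA and 30.1, 36.4, 26.0 and 21.5 with EP (fold -1.83, SE 0.14). EP mouse 311 was the highest or second highest EP library for these 3 genes. The replication factor Cdc45 (fold -1.78) and the chromatin assembly subunit Chaf1b (-1.97) fell as well, as did Apitd1 of the centromere (-1.71).

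Mitotic genes gave the same picture. Birc5, the survivin subunit of the chromosomal passenger complex, was at 1.72, 2.21, 1.21 and 2.95 in EP+TPA libraries, against 21.0, 15.9, 14.4 and 13.8 in EP libraries (fold -2.53, SE 0.20, adjusted p 1.2e-06 in limma). Stmn1, a microtubule destabilizer, was at 20.0, 24.1, 18.5 and 27.6 with EP+TPA and at 164.1, 111.4, 139.1 and 78.3 with EP (fold -2.36, SE 0.19). Neither gene's groups overlapped, which a rule that picked both genes required. Ube2c, the ubiquitin carrier of the anaphase complex, had a fold of -2.66, cyclin A2 (Ccna2) -2.25, the kinase Aurkb -2.02, the condensin subunit Ncaph -1.63, Shcbp1 -1.86 and Mybl2, a transcription factor of cell cycle genes, -1.73. The histone Hist1h2ag had a fold of -2.44, which is uncertain because histone genes have near-identical copies. The proliferation marker Mki67 averaged 0.194 ± 0.0453 with EP+TPA and 1.64 ± 0.321 with EP (SD, n = 4 each), with a fold of -1.14 (SE 0.11). Its direction too was fixed by the filter, since it reached 1 only in EP libraries. EP+RU486 and sham libraries averaged 0.355 and 0.113 for Mki67, and 3.02 and 1.19 for Uhrf1.

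**Figure D2:**
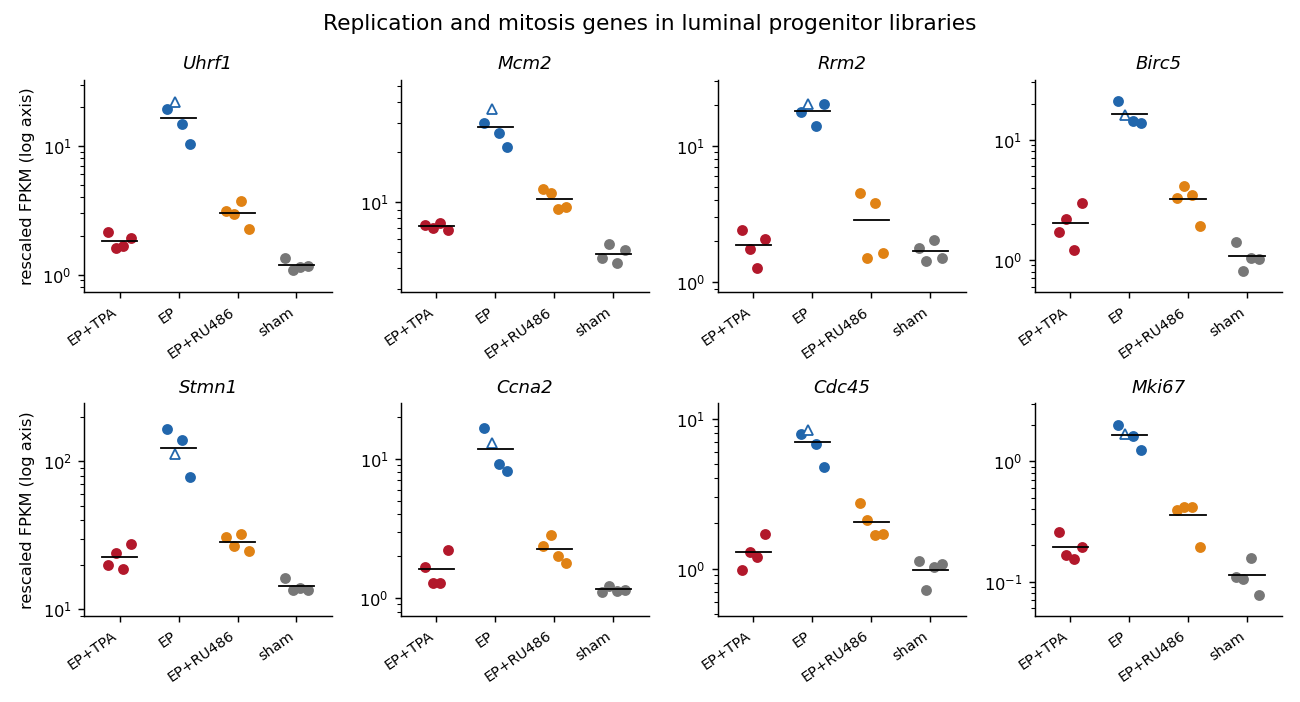
Rescaled FPKM (log axis) of 8 replication and mitosis genes in each luminal progenitor library by treatment, with 1 point per mouse and a bar at the group mean, and EP mouse 311 as an open triangle. In every panel the 4 EP+TPA points lie below the 4 EP points, and the open triangle lies with the other EP mice. All genes but Mki67 meet a naming rule that required lack of overlap, and Mki67 reached 1 only in EP libraries.

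Among regulators of the cycle, 8 of 23 tested fell and 2 rose, with a median fold of -0.25. The transcription factors E2f1 (-1.42), E2f8 (-1.02) and Myb (-2.11) and the kinase Cdk4 (-0.76) fell. E2f8 reached 1 only in EP libraries, so the filter fixed its direction. Cdk4 was at 91.6, 121.9, 100.8 and 117.7 with EP+TPA and at 189.4, 170.8, 201.2 and 169.0 with EP. Myc, a growth regulator, was at 148.1, 148.2, 87.8 and 112.3 in EP+TPA libraries and 62.7, 98.8, 51.8 and 39.9 in EP libraries. Its groups overlap through EP mouse 311, and it rose with a fold of 1.01 (SE 0.26, adjusted p 0.013 in limma), a call lost with the EP+TPA and EP libraries alone (adjusted p 0.059). The D cyclins did not pass. Ccnd1 was at 35.4 to 55.6 with EP+TPA and 39.0 to 108.9 with EP (fold -0.35, SE 0.32, adjusted p 0.506), and Ccnd2 at 1.73 to 2.03 with EP+TPA and 1.59 to 2.85 with EP. The inhibitor Cdkn1a did not pass either (-0.25, SE 0.18, adjusted p 0.368), although it did without EP+TPA mouse 336 (-0.45). Of 23 genes for DNA methylation and chromatin, 11 fell and none rose (median -0.52). They included the maintenance methyltransferase Dnmt1, at 14.9, 11.7, 12.96 and 11.9 with EP+TPA and 27.8, 28.1, 20.3 and 20.6 with EP (fold -0.85, SE 0.13), the helicase Hells (-1.74) and the chromatin protein Hmgb2 (-1.10).

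Sequence upstream of these genes was searched for motifs known from cell cycle promoters, over the 250 bases before the RefSeq transcript start on GRCm38.p6, which 8863 of the 11585 tested genes had in the promoter table. The motifs were the CCAAT box, the CHR element TTTGAA, E2F sites (TTTCCCGC, TTTCGCGC, TTTGCCGC or TTTGGCGC), the cyclic AMP response element TGACGTCA, and the palindrome bound by progesterone and glucocorticoid receptors (GNACANNNTGTNC), on both strands. Printed matches do not overlap each other. A CCAAT box was present for 26 of 36 fallen mitosis genes with a promoter (72.2%) and 20 of 32 fallen replication genes (62.5%), against 40.3% of all tested genes. The CHR element was present for 36.1% of the fallen mitosis genes and 18.8% of the fallen replication genes, against 12.6% of tested genes. E2F sites showed the other order, with 34.4% of the fallen replication genes and 2.78% of the fallen mitosis genes, against 4.02%. The receptor palindrome was present for 1 of 10 fallen paracrine genes with a promoter, and for 0.649% of genes that fell and 0.159% of those that rose, against 0.305% of tested genes. These shares are descriptions of letters and carry no test. Cyclin B2 (Ccnb2) and the kinase Cdk1, which drive entry into mitosis, are shown with Uhrf1 because they hold several of the motifs, a choice made after the matches were seen. Capitals mark motif matches, and each sequence runs 5′ to 3′ on the strand of the gene.
Ccnb2, chr9:70421555-70421804, minus strand: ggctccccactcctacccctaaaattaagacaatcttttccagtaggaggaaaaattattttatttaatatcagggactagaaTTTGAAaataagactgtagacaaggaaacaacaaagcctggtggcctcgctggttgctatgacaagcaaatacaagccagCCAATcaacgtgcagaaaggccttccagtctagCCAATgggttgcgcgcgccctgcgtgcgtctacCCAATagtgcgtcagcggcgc
Cdk1, chr10:69352913-69353162, minus strand: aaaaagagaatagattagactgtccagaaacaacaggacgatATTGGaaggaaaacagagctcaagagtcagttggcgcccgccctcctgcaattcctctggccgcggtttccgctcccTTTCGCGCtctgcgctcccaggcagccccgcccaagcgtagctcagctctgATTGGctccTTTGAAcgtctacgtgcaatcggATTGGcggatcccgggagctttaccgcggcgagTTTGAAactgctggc
Uhrf1, second RefSeq start, chr17:56304063-56304312, plus strand: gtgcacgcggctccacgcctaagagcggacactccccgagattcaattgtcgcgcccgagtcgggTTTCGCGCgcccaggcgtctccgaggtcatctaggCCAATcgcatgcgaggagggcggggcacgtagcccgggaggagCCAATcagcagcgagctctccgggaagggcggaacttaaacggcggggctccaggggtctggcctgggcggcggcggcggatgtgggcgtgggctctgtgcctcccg
Ccnb2 holds 3 CCAAT boxes, starting 87, 54 and 21 bases before the start, and Cdk1 holds 3 CCAAT boxes, 2 CHR elements and an E2F site that starts 131 bases before it. Ccnb2 averaged 1.78 ± 0.528 with EP+TPA and 12.5 ± 4.28 with EP, and Cdk1 averaged 0.977 ± 0.227 with EP+TPA and 7.44 ± 2.41 with EP (SD, n = 4 each).

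Several secreted ligands fell as well, with a wide spread among EP mice. Of 25 tested paracrine mediators and progesterone targets, 11 fell and 2 rose (median -0.68), and 12 fell without EP mouse 311 and 9 without EP mouse 327. Areg, a ligand of the EGF receptor, was at 6.64, 7.03, 7.47 and 8.87 in EP+TPA libraries, against 210.7, 46.3, 411.7 and 344.1 in EP libraries, with a fold of -4.52 (SE 0.57, adjusted p 9.34e-05 in limma). The lowest EP value, from mouse 311, still lay above every EP+TPA value. Epgn, another EGF receptor ligand, was at 1.43, 1.15, 0.492 and 1.10 with EP+TPA and 22.0, 4.95, 31.1 and 28.7 with EP (fold -3.24, SE 0.43). Rspo1, which amplifies Wnt signals, was at 4.56, 8.83, 6.53 and 5.08 with EP+TPA and 144.1, 23.4, 110.4 and 28.3 with EP (fold -3.04, SE 0.45), and belongs to the progenitor list and not to the luminal mature list. Wnt4 was at 1.26, 1.84, 1.33 and 1.42 with EP+TPA and 24.2, 2.58, 23.7 and 29.1 with EP (fold -2.71, SE 0.51, adjusted p 0.00192).

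Mouse 311 had the lowest EP value of each of these 4 ligands. For RANKL it reached the EP+TPA range. Tnfsf11 was at 0.901, 1.30, 0.902 and 0.941 in EP+TPA libraries, close to its lowest value of 0.886, and at 22.0, 1.26, 9.47 and 62.0 in EP libraries (fold -2.76, SE 0.67, adjusted p 0.00983 in limma). Its fold was -3.63 without EP mouse 311, and its call was lost when the EP+TPA and EP libraries alone were fitted (adjusted p 0.0787). The calcitonin gene Calca was at 3.56 to 3.77 with EP+TPA and at 116.3, 3.96, 79.7 and 275.1 with EP (fold -3.68, SE 0.96, adjusted p 0.0146), and lost its call without EP mouse 306 (-3.36, adjusted p 0.0515) and with the EP+TPA and EP libraries alone (adjusted p 0.0624). The chemokine Cxcl15 (-3.76), the glycoprotein hormone Stc2 (-3.20) and the neurotrophin Bdnf (-2.11) fell with no overlap. For Bdnf the filter fixed the direction, since it reached 1 only in EP libraries. Mean levels of Areg were 10.2 in EP+RU486 and 20.3 in sham libraries, and those of Tnfsf11 were 1.39 and 0.898. The promoters of Areg and Tnfsf11 are shown for these ligands, with the same motifs in capitals.
Areg, chr5:91139349-91139598, plus strand: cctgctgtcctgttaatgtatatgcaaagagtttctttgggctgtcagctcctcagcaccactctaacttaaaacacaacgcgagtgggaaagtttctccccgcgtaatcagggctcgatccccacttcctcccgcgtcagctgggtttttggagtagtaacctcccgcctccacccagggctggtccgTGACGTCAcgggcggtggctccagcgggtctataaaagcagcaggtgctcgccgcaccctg
Tnfsf11, chr14:78308044-78308293, minus strand: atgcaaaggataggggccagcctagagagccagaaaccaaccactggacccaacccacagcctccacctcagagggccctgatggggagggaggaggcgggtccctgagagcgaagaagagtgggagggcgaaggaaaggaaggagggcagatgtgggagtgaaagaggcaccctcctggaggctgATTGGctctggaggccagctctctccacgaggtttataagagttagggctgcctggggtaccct
Areg holds a cyclic AMP response element that starts 61 bases before the transcript start. That motif was present for 3.09% of tested genes, 1.84% of those that fell and 2.86% of those that rose.

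Receptors and lineage factors of hormone-sensing cells fell together with the ligands, and Areg is counted in both the paracrine and the luminal mature list. In the luminal mature list 13 of 23 tested fell and 2 rose, with a median of -1.33, and 14 fell without EP mouse 311 and 11 without EP mouse 327. The progesterone receptor Pgr was at 0.308, 0.357, 0.295 and 0.363 in EP+TPA libraries, against 6.45, 1.06, 4.61 and 8.05 in EP libraries (fold -1.99, SE 0.35, adjusted p 0.00115 in limma). The pioneer factor Foxa1 was at 2.57, 2.86, 2.35 and 4.11 with EP+TPA and 33.5, 5.91, 24.3 and 67.4 with EP (fold -2.69, SE 0.50). The prolactin receptor Prlr was at 40.6, 35.1, 35.1 and 32.9 with EP+TPA and 276.2, 45.5, 234.9 and 449.9 with EP (fold -2.39, SE 0.50). In each of the 3 genes the groups did not overlap and mouse 311 was the lowest EP library. Tbx3, a transcription factor of this lineage, had a fold of -2.37. The estrogen receptor Esr1 did not pass, at 6.59, 2.74, 3.34 and 2.85 with EP+TPA and 8.11, 3.16, 8.45 and 14.1 with EP (-0.88, SE 0.32, adjusted p 0.074), and it passed without EP mouse 311 (-1.23) or EP+TPA mouse 312 (-1.11). Sham libraries averaged 144.1 for Prlr and 12.2 for Foxa1, and EP+RU486 libraries 48.5 and 3.28. Among 18 estrogen receptor targets 3 fell and 3 rose (median 0.16), and 6 rose without EP mouse 311. With all libraries 16.7% fell and 16.7% rose, against 11.0% and 7.45% over all genes. Greb1, a cofactor of that receptor, fell by 1.87, and the retinoic acid receptor Rara rose by 0.99. Greb1 reached 1 only in EP libraries, so the filter fixed its direction. Of 17 steroid receptors and coregulators 2 fell, Pgr and the chaperone Fkbp5 (-0.87), and 2 rose, Ncoa1 (0.60) and the glucocorticoid receptor Nr3c1 (0.42). That was 11.8% in each direction, near the shares over all genes of 11.0% fallen and 7.45% risen. The calls of Fkbp5, Ncoa1 and Nr3c1 were each lost on leaving out 1 of at least 3 libraries, with adjusted p of up to 0.0799, 0.0738 and 0.106.

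**Figure D3:**
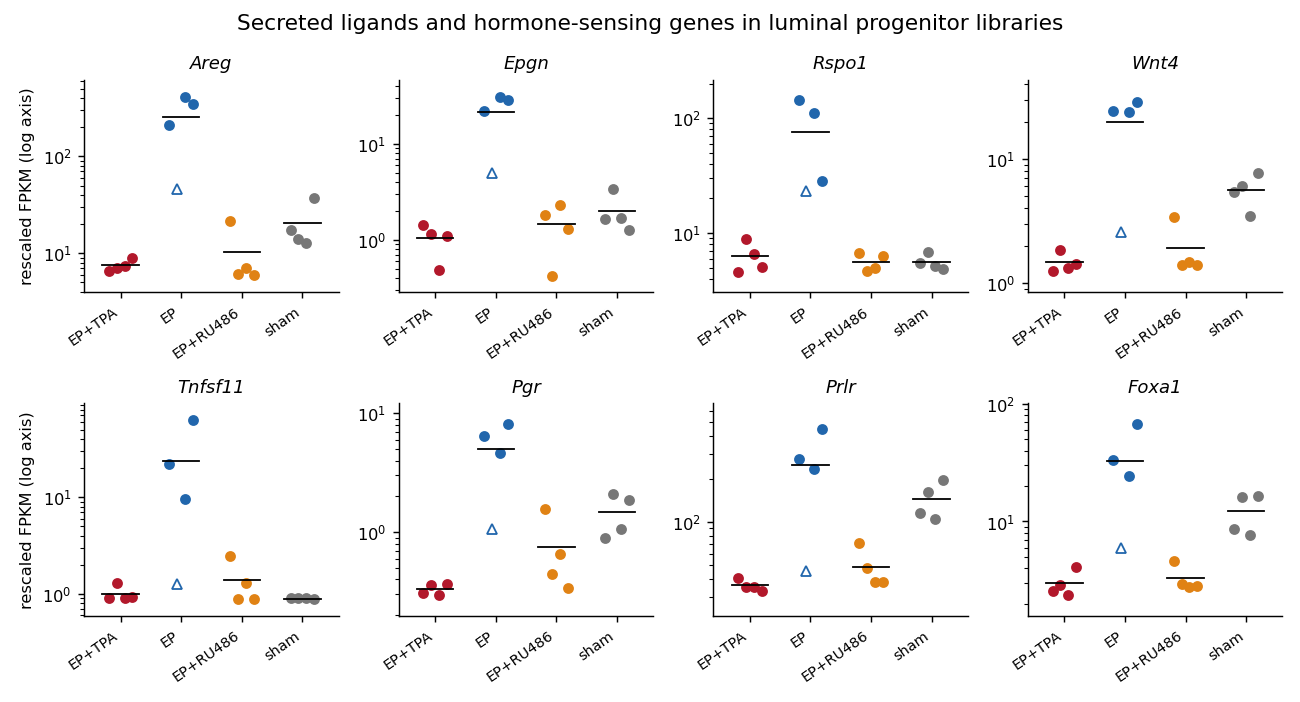
Rescaled FPKM (log axis) of 8 ligand and hormone-sensing genes in each luminal progenitor library by treatment, with 1 point per mouse and a bar at the group mean, and EP mouse 311 as an open triangle. The triangle is the lowest EP point in all 8 panels and lies inside the EP+TPA range for Tnfsf11, where it is at 1.26 against 0.901 to 1.30.

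**Figure D4:**
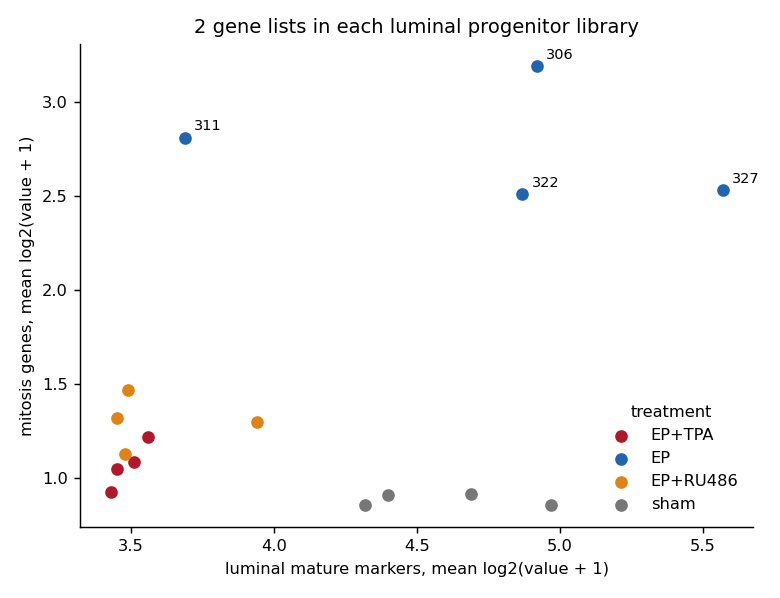
Mean log2(value + 1) over the luminal mature list (horizontal) and the mitosis list (vertical), 1 point per luminal progenitor library, with EP points named by mouse. EP+TPA libraries lie at 0.93 to 1.22 for mitosis and EP libraries at 2.51 to 3.19, while EP mouse 311 lies at 3.69 for luminal mature genes, next to EP+TPA.

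Many luminal progenitor and milk genes rose with telapristone. In the progenitor list 11 of 22 rose and 3 fell (median 0.99). There were 13 that rose without EP mouse 311, 8 without EP mouse 327 and 7 without EP+TPA mouse 312. With the EP+TPA and EP libraries alone, 7 rose. In the milk and alveolar list 11 of 23 tested rose and 1 fell (median 0.75), and 2 fell without EP mouse 327. Csn3, kappa-casein, was at 2828, 2664, 2995 and 2462 in EP+TPA libraries, against 154.2, 1036, 185.0 and 98.0 in EP libraries (fold 3.55, SE 0.49, adjusted p 0.000162 in limma). Ltf, the iron-binding milk protein lactoferrin, was at 649.8, 2086, 1054 and 788.2 with EP+TPA and 217.0, 196.4, 263.7 and 123.5 with EP (fold 2.41, SE 0.35). The siderophore-binding protein Lcn2 was at 3124, 2940, 2976 and 2684 with EP+TPA and 431.1, 1482, 447.0 and 180.3 with EP (fold 2.62, SE 0.43). The groups did not overlap in these genes, and mouse 311 was the highest EP library for Csn3 and Lcn2 but not for Ltf. Osteopontin (Spp1) had a fold of 3.86, the lipid droplet factor Cidea 2.23 and the milk fat globule protein Mfge8 1.89. The co-receptor for lipopolysaccharide Cd14 was at 335.4, 309.9, 367.0 and 392.2 with EP+TPA and 80.5, 236.8, 88.4 and 46.8 with EP (fold 1.88, SE 0.39, adjusted p 0.0034).

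Not all members followed. Csn2, beta-casein, fell, at 2.98, 11.3, 14.7 and 2.51 in EP+TPA libraries against 87.1, 48.7, 34.9 and 34.0 in EP libraries (fold -2.75, SE 0.66, adjusted p 0.00978 in limma). Elf5 did not pass, at 26.3, 28.0, 26.6 and 16.3 with EP+TPA and 14.2, 22.5, 13.7 and 3.91 with EP (0.97, SE 0.34, adjusted p 0.0607). It passed without EP mouse 311 (1.27) or EP+TPA mouse 336 (1.14). The aldehyde dehydrogenase Aldh1a3 did not overlap between the groups yet did not pass (1.0, SE 0.38, adjusted p 0.0809), and passed without EP mouse 311 (1.20) or EP mouse 322 (1.23). Kit (0.49, SE 0.38, adjusted p 0.417) and the milk gene regulator Stat5a (-0.06, SE 0.19, adjusted p 0.874) did not pass. Stat5a averaged 76.0 with EP+TPA, 76.4 with EP, 92.5 with EP+RU486 and 21.8 in sham libraries.

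**Figure D5:**
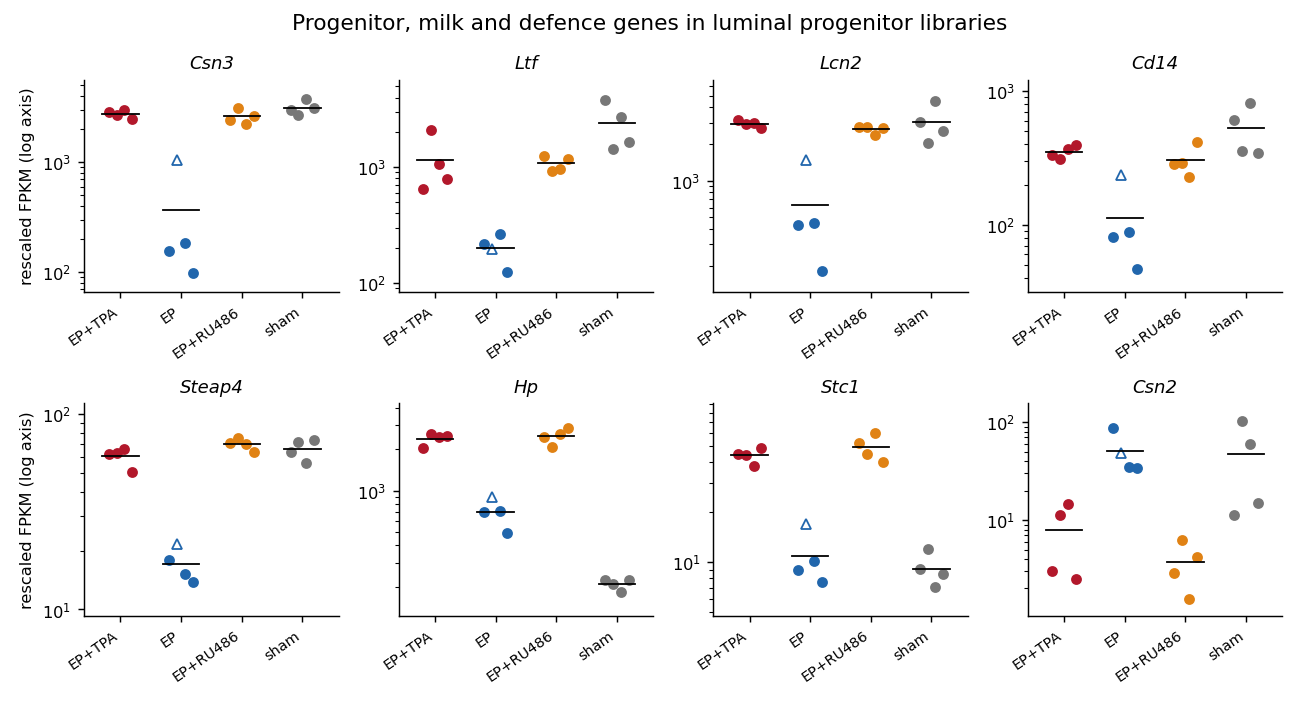
Rescaled FPKM (log axis) of 8 progenitor, milk and defence genes in each luminal progenitor library by treatment, with 1 point per mouse and a bar at the group mean, and EP mouse 311 as an open triangle. The 4 EP+TPA points lie above the 4 EP points in 7 panels and below them for Csn2. Steap4, Hp and Stc1 were picked with lack of overlap as a condition.

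Leaving out clone and predicted-gene symbols, 169 genes rose by at least 1 with no overlap and a mean of at least 5 with EP+TPA. The 15 of these with the smallest adjusted p were of mixed function. Steap4, a metalloreductase, was at 62.2, 63.1, 65.9 and 50.6 in EP+TPA libraries, against 17.9, 21.7, 15.2 and 13.9 in EP libraries (fold 1.77, SE 0.13, adjusted p 1.2e-06 in limma). The neutrophil-type serine protease Prtn3 was at 7.71, 6.87, 9.97 and 8.26 with EP+TPA and 0.658, 1.74, 0.475 and 0.363 with EP (fold 2.39, SE 0.18). Haptoglobin (Hp), an acute phase protein that binds free haemoglobin, was at 2028, 2577, 2456 and 2505 with EP+TPA and 699.2, 899.7, 714.9 and 490.0 with EP (fold 1.80, SE 0.17). Lack of overlap in these genes was a condition of their selection and not a result. The annexin Anxa8 (2.92), the magnesium transporter Slc41a2 (2.29), the chloride channel regulator family member Clca3a2 (2.23), the growth hormone receptor Ghr (1.27), the matrix protein Fbln7 (2.99), the glycoprotein hormone Stc1 (1.98), Plekhg6 (1.0), Osgin2 (1.78), Gdpd2 (1.82), the basement membrane collagen Col4a5 (1.55) and Cyp2d22 (2.72) completed the list with the complement gene C4a (1.81). Fbln7 was listed at 0 in EP mice 306 and 322. Clca3a2, Cyp2d22 and C4a have close relatives whose reads could be shared, so their values are uncertain.

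Phgdh, the first enzyme of serine synthesis, was at 5.37, 9.62, 5.41 and 6.49 with EP+TPA and 33.3, 15.5, 38.8 and 48.8 with EP (fold -2.11, SE 0.29), with Psat1 (-1.43) and Mthfd2 (-1.09) lower as well. In the list of ATF4 targets, serine and one-carbon enzymes that holds these 3 genes, 4 of 18 fell and 2 rose (median -0.29), among them the amino acid transporter subunit Slc3a2 (1.01), and 1 rose without each of 5 single libraries. Other metabolic lists had smaller medians. Of the cholesterol and fatty acid list 12% fell and 8% rose, near the shares over all genes of 11.0% and 7.45%. Cholesterol and fatty acid genes had 3 lower, among them Scd2 (-1.31) and Acly (-0.58), and 2 higher, with Elovl6 at 0.96, of 25 (median 0.13), and 1 higher without EP mouse 306 or 327 or EP+TPA mouse 323. Glycolysis and hypoxia genes had 4 lower and 3 higher of 24 (median 0.07), with P4ha2 at -2.67, Pgam1 at -0.84 and Aldoc at 1.44, with 2 lower without EP mouse 327, and 1 higher without EP mouse 306 or 322 or EP+TPA mouse 312. Oxidative phosphorylation had 5 lower and none higher of 30 (median -0.18), with Ndufa1 at -0.91, Cox5a at -0.67 and Ndufs1 at -0.42, and 8 lower without EP mouse 311 and 9 without EP+TPA mouse 336. That count was 14 with unscaled values, 11 under quantile normalization, 13 with library weights and 1 with the EP+TPA and EP libraries alone, and no member rose under any of these. Transporters had 4 in each direction of 19 (median 0.19), with the zinc transporter Slc39a14 at 1.41, the phosphate transporter Slc34a2 at 1.45, Slc1a4 at 1.03 and the riboflavin transporter Slc52a3 at -1.91.

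Receptor and signalling lists also held members that moved in both directions. Over all genes 11.0% fell and 7.45% rose. The share was 20% each way for EGF genes, and 36.4% fell and 13.6% rose for Wnt genes. Of Notch genes 26.3% rose, and the 10.5% that fell was near the share over all genes. EGF family genes had 4 that fell and 4 that rose of 20 (median 0.03), with the feedback inhibitors Spry1 at -0.72 and Lrig1 at 0.79, and the number that rose was 1 without EP mouse 306 and 2 without EP mouse 322 or EP+TPA mouse 323. Wnt genes had 8 that fell and 3 that rose of 22 (median -0.03), and 5 that fell without EP mouse 306. Wnt5b, a noncanonical ligand, was at 150.6, 153.4, 149.2 and 179.5 with EP+TPA and 60.8, 109.4, 63.0 and 30.7 with EP, with no overlap (fold 1.38, SE 0.27, adjusted p 0.00213 in limma), and the transcription factor Tcf7 fell by 0.95 with overlap, a call lost without EP mice 311 and 327 together (-0.79, adjusted p 0.0503). In the Notch list 5 of 19 rose and 2 fell (median 0.14), but none rose without EP+TPA mouse 312 or EP mouse 322 and 1 without EP mouse 306 or 327 or EP+TPA mouse 323 or 328. The Notch target Hey1 was at 155.1, 74.1, 80.6 and 32.3 in EP+TPA libraries and 7.30, 76.5, 6.97 and 5.69 in EP libraries. Mouse 311 lay inside the EP+TPA range, and the call (fold 2.46, SE 0.68, adjusted p 0.0198) was lost without EP mouse 306, 322 or 327 or EP+TPA mouse 312, with adjusted p of up to 0.0669. Hey2 (0.94) lost its call without each of 6 libraries in turn, while Heyl (-0.62) and Lfng (-0.90) kept theirs there, although Lfng lost its call with the EP+TPA and EP libraries alone (adjusted p 0.0797). In the prolactin and STAT list 2 of 18 rose, Ghr and the oncostatin M receptor Osmr (1.47), and 2 fell, Prlr and the kinase Jak2 (-0.97), with a median of 0.31 and 4 that rose without EP mouse 311. The list's share was 11.1% in each direction, near the 11.0% of all genes that fell and the 7.45% that rose.

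Defence and stress lists moved in both directions or little, and some counts were near the shares over all genes, 11.0% fallen and 7.45% risen. Of the immediate early list 7.69% rose, and of the unfolded protein response list 8.7% rose and 8.7% fell. Of the interferon list 8.7% fell and 17.4% rose. Innate defence genes had 4 higher and 4 lower of 20 (median 0.39), none lower when the EP+TPA and EP libraries alone were fitted, the higher ones being Ltf, Lcn2, Cd14 and the lipopolysaccharide-binding protein Lbp (1.13). Interferon genes had 4 higher and 2 lower of 23 (median 0.37), with Ifih1 at 0.46, Oasl2 at 0.90, Bst2 at -0.88 and Psmb8 at -0.59. All but Ifih1 of these 4 lost their calls without at least 3 single libraries, with adjusted p of up to 0.0837 for Oasl2, and in that list 1 gene rose without EP mouse 306 or 322 or EP+TPA mouse 312 or 328, and none fell without EP mouse 327 or EP+TPA mouse 323. Immediate early genes, which dissociation of tissue can induce, had 2 of 26 higher, Jund (0.81) and Fosb (1.33), and none lower (median 0.30), with 6 higher without EP mouse 311 or EP+TPA mouse 336. The call of Fosb was lost without each of 4 libraries in turn, with adjusted p of up to 0.061. Unfolded protein response genes had 2 in each direction of 23 (median -0.10). Ern1 fell by 1.06, whereas the calls of Ddit3 (0.60), Herpud1 (0.81) and Pdia6 (-0.66) were each lost without at least 3 libraries, with adjusted p of up to 0.0794, 0.134 and 0.13, and 6 genes of the list fell without EP mouse 311 and none rose without EP mouse 306 or EP+TPA mouse 323. Among 19 p53 targets 5 fell, with Gtse1 at -1.06, Plk2 at -0.87 and Bax at -0.86, and Fas (1.47) rose (median -0.37), and 3 fell without EP mouse 327. Gtse1 reached 1 only in EP libraries, so the filter fixed its direction.

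Glucocorticoid receptor targets had 7 that fell and 3 that rose of 22 (median -0.07), but 2 that fell without EP mouse 306 or EP+TPA mouse 312 and 3 without EP mouse 322 or 327 or EP+TPA mouse 323 or 328. Glutamine synthetase (Glul) was at 22.8, 32.6, 26.9 and 21.2 with EP+TPA and 102.4, 36.6, 128.6 and 130.3 with EP (fold -1.76, SE 0.30, adjusted p 0.000953 in limma). The transglutaminase Tgm2 fell by 1.74 and the pyruvate dehydrogenase kinase Pdk4 rose by 2.66, at 109.3, 100.7, 66.0 and 157.9 with EP+TPA and 16.7, 62.2, 5.30 and 9.58 with EP. Neither gene's groups overlapped. In the circadian list 5 of 19 rose and none fell (median 0.46). Per2, a clock repressor, was at 12.6, 11.8, 14.9 and 12.5 with EP+TPA and 5.37, 6.92, 7.65 and 5.71 with EP (fold 0.92, SE 0.16, adjusted p 0.00102), and sham libraries averaged 27.5. The list's count was 2 without EP mouse 306, 322 or 327 or EP+TPA mouse 328, 3 without EP+TPA mouse 312 or 323 and 7 without EP mouse 311, and the call of Hlf (0.92) was lost without several single libraries, with adjusted p of up to 0.125. Rora rose by 0.68. The hour of killing is not given in the sources used here.

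Endothelial, immune, skeletal muscle and red blood cell markers did not pass the test, while some stromal and nerve markers and 1 adipocyte marker did. Of tested stromal genes 23.1% fell, and of nerve genes 66.7% rose, against 11.0% fallen and 7.45% risen over all genes. The luminal mature list, of which 13 of 23 tested fell, is given above. Of 20 endothelial genes none changed (median -0.04), and the summed endothelial level was 299.8 to 585.3 with EP+TPA and 264.0 to 1050.0 with EP. Plvap and Pecam1 had folds of 0.06 each (adjusted p 0.948 and 0.936 in limma), and both signs turned negative with unscaled values. None of the 4 tested immune genes (16 listed), 7 skeletal muscle genes (11 listed) or 3 red blood cell genes (7 listed) changed, with medians of -0.08, -0.87 and 0.43. Among 13 stromal genes 3 fell and none rose (median -1.13), with Col6a1 at 7.38, 3.71, 3.02 and 3.17 in EP+TPA libraries and 29.5, 12.2, 30.8 and 91.4 in EP libraries (fold -2.70, SE 0.44), Col6a2 at -2.19 and Dcn at -1.90. The summed stromal level was 36.6 to 137.9 with EP+TPA and 178.9 to 415.6 with EP, and its part in the other falls was not tested. There were also 3 that fell without EP mouse 327, and the call of Dcn was lost without EP mouse 322 (-1.75, adjusted p 0.0516) or EP+TPA mouse 328 (-1.68, adjusted p 0.0544). The lipase Lpl (-0.71) was the 1 of 8 adipocyte genes that fell (median -0.10). That was 12.5%, near the 11.0% of all genes that fell. Of 3 tested nerve genes 2 rose, Sox10 (1.15) and Mbp (0.63). Sox10 is also in the progenitor list. Its values were 40.4, 39.0, 35.8 and 45.9 with EP+TPA and 19.1, 32.3, 24.0 and 5.97 with EP, with a fold of 0.69 without EP mouse 327, and both calls were lost without most single libraries, with adjusted p of up to 0.068 for Sox10 and 0.0921 for Mbp.

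Basal genes had 2 in each direction of 30 (median -0.01), the peptidase Mme (1.54) and Nrg1 (0.66) higher and 2 lower that included Cdh3 (-1.22). That was 6.67% each way, below the shares over all genes of 11.0% fallen and 7.45% risen. The call of Nrg1 was lost without several single libraries, with adjusted p of up to 0.104, and the counts fell to 1 in a direction without some of them. Krt14 had a fold of -0.06 (SE 0.10), with a sign that turned without EP mouse 322. Luminal keratin and adhesion genes had 2 lower, Krt7 (-1.94) and Cd24a (-0.63), and 1 higher, Elf3 (0.81), of 17 (median 0.03), or 11.8% and 5.88%. Elf3 lost its call without EP mice 311 and 327 together (adjusted p 0.0609). Krt8 and Krt18 had folds of 0.03 and 0.32 (adjusted p 0.966 and 0.45 in limma), which turned negative under quantile normalization. None of 54 ribosomal protein genes changed (median 0.27), with Rpl32 at 0.48 (adjusted p 0.133) and Rpl13 at 0.49 (adjusted p 0.0501), and 2 rose without EP mouse 311 or EP+TPA mouse 312. None of 30 ribosome biogenesis genes changed (median -0.06), with Npm1 at -0.09 and Nop58 at -0.03, signs that turned without EP mouse 311, and 2 fell without EP mouse 327 or EP+TPA mouse 336. Reads of ribosomal protein genes and Npm1 can be shared with pseudogene copies, so their levels are uncertain.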

How the data were processed

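Polyadenylated RNA of FACS-sorted cells was sequenced as 75-base pairs. The tools STAR, Cufflinks and DESeq2, and mm9 as the build, are named without versions or order, per the submitters' processing notes. The deposited values are on the FPKM scale and not whole counts, although the table is named for read counts. Read depth is therefore unknown. The authors' table also carries an offset by gene. Of 8883 genes that share their lowest value between luminal progenitor libraries, 8669 have that value above 0. The median shared value was 0.00137, so for many genes the offset was small. The deposited values of the 8 libraries compared summed to 300032 to 358375 each.

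Of 22007 symbols, 27 that read as dates were left out. The 16 luminal progenitor libraries were rescaled by median-ratio factors of 0.884 to 1.138 (9373 genes) applied to the part above the shared lowest value. Genes with a value of at least 1 in 3 libraries, and 3 above the shared lowest value, were tested with limma 3.58.1 (R 4.3.3). The fit was on log2(value + 1), trended and robust, with 4 treatment groups in 1 fit that shared the spread. The approach was tried on simulated data with equal spread in all groups and no offset by gene. That trial does not cover genes of unequal spread, such as Tnfsf11, with an SD of 26.9 in EP and 0.194 in EP+TPA libraries. Named genes were the 15 with the smallest adjusted p in each direction under set conditions. These were a fold of at least 1, no overlap, a mean of at least 5 in the higher group and no clone or predicted-gene symbol. Also named were up to 4 changed members of each list, 30 fixed genes, and a few promoters chosen after matches were seen. Members and lists were chosen with earlier results of these data known. Lists share members, so their counts are not separate results. Areg is in the paracrine, EGF and luminal mature lists, and Csn3 and Mfge8 are in the milk and progenitor lists. Alternatives covered scaling, pseudocount, filter, groups fitted, variance model, weights and leaving out each library. Some genes that met the naming rule are not reported here.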

Additional observations from a re-analysis of the deposited data

Results flagged for a closer look

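Of 308 group values examined (154 named genes in 2 groups of 4), 31 had a mouse far from the other 3, its gap to the nearest, as a share of the group's range, being above Dixon's 95% critical value. Chance alone marks about 1 in 20 such groups, and 13 of the 31 came from EP mouse 311. No reason was tested for any of them.

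In EP+TPA libraries, mouse 312 had Col6a1 at 7.38 against 3.02 to 3.71 in the other 3, Col6a2 at 4.85 against 1.54 to 1.93, Jund at 327.3 against 211.8 to 226.7 and Esr1 at 6.59 against 2.74 to 3.34. Mouse 323 had Bdnf at 0.2099 against 0.1859, Osmr at 19.9 against 32.7 to 35.2 and Tnfsf11 at 1.30 against 0.901 to 0.941. Mouse 328 had Ndufs1 at 23.4 against 22.8 to 22.9. Mouse 336 had Wnt5b at 179.5 against 149.2 to 153.4, Slc3a2 at 180.3 against 229.7 to 236.4, Slc52a3 at 1.34 against 1.07 to 1.10 and Elf5 at 16.3 against 26.3 to 28.0.

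In EP libraries, mouse 311 was high for Anxa8 (13.25 against 4.24 to 5.58), Ghr (19.8 against 13.7 to 14.1), Osgin2 (9.20 against 4.43 to 4.85), Cyp2d22 (17.0 against 4.47 to 5.57), Hey1 (76.5 against 5.69 to 7.30), Hey2 (1.44 against 0.290 to 0.484), Csn3 (1036 against 98.0 to 185.0), Spp1 (591.5 against 69.71 to 101.0), Hba-a1 (66.4 against 13.9 to 17.2), Hbb-b1 (56.6 against 10.6 to 11.9), Fosb (66.1 against 33.8 to 38.1) and Slc3a2 (143.8 against 97.6 to 99.6), and low for Ndufa1 (183.2 against 386.4 to 415.2). For 11 of these 13 genes, all but the globin genes Hba-a1 and Hbb-b1, EP+TPA and EP differed in the test and mouse 311 was the EP library nearest to the EP+TPA mean. Mouse 327 had Col6a2 at 35.2 against 8.09 to 11.4, Acta1 at 102.6 against 1.53 to 4.85, Tnnc2 at 41.7 against 0.572 to 1.36 and Ccnd2 at 2.85 against 1.59 to 1.79. Mouse 306 had Ube2c at 41.6 against 25.6 to 28.1, and mouse 322 had Krt8 at 2035 against 1150.0 to 1260.0.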

How the results depend on the processing

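The count of 2132 changed genes (863 rose, 1269 fell) moved by more than 1.5 times in some direction under 5 alternatives. It was 1409 with a filter of at least 5 in 4 libraries (710 fell), where fewer genes were tested, and 940 (391 rose, 549 fell) when the EP+TPA and EP libraries alone were fitted, of which 936 were among the 2132. Library weights gave 3215 (1397 rose), and unscaled values 540 that rose and 2172 that fell. Leaving out single libraries gave 1397 to 2772 in all, 586 to 1148 that rose and 811 to 1624 that fell, the lowest counts without EP mouse 306 and the highest total without EP mouse 311. Where the cause is not named, it was not tested. Of 131 named genes that passed, 96 kept their call under all of the 18 alternatives that gave them a value. In the same sense 110 kept it without each library in turn. Some fell below the filter in part of the alternatives. E2f8, Bdnf, Greb1 and Gtse1 had a value under 13 of them, and Mybl2 and Mki67 under 16. None of the 131 reversed. Among named genes that did not pass, signs reversed as follows. With unscaled values Plvap and Pecam1 were at -0.10 each, H2-Aa at -0.03 and Krt8 at -0.13. Under quantile normalization Plvap was at -0.04, Ccnd2 at 0.04, Krt8 at -0.38 and Krt18 at -0.08. With a pseudocount of 5 H2-Aa was at -0.01. With library weights Lyz2 was at 0.05, Ccnd2 at 0.07 and Krt8 at -0.22. Without EP mice 311 and 327 together, chosen after seeing the data, Lyz2 was at 0.07, Acta1 at 0.53, Tnnc2 at 0.46, Nop58 at 0.01, Ccnd2 at 0.12 and Krt8 at -0.18. Leaving out single libraries gave -0.22 to 0.48 for Plvap, -0.16 to 0.43 for Pecam1, -0.48 to 0.72 for H2-Aa, -0.67 to 0.05 for Lyz2, -1.61 to 0.18 for Acta1, -1.32 to 0.27 for Tnnc2, -0.35 to 0.02 for Npm1, -0.19 to 0.15 for Nop58, -0.28 to 0.11 for Stat5a, -0.10 to 0.09 for Ccnd2, -0.21 to 0.22 for Krt8 and -0.13 to 0.03 for Krt14. No paired analysis was possible because each mouse received 1 treatment and gave 1 luminal progenitor library, so no replicate block pairs EP+TPA with EP. Unknown depth and the offset by gene limit what low values can show.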

Other observations

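Some members of the lists fell outside the rule for named genes and are given here after their values were seen. The secreted protease inhibitors Wfdc2 and Slpi, both counted in the defence list, fell with overlapping groups. Wfdc2 averaged 96.6 ± 23.6 with EP+TPA and 733.8 ± 473.9 with EP, and Slpi averaged 99.1 ± 13.1 with EP+TPA and 848.9 ± 813.4 with EP (SD, n = 4 each; log2 folds -2.47 and -2.43). Neither passed when the EP+TPA and EP libraries alone were fitted (adjusted p 0.0637 for Wfdc2 and 0.084 for Slpi in limma). The tumour suppressor Rb1, a brake on E2F factors, rose by a log2 fold of 1.71 (SE 0.30), at 47.2 ± 13.8 with EP+TPA and 14.8 ± 8.73 with EP. In the milk list the lipase Cel averaged 186.4 ± 42.1 with EP+TPA and 41.1 ± 32.5 with EP, and the milk fat membrane protein Btn1a1 averaged 82.5 ± 31.2 with EP+TPA and 21.4 ± 17.8 with EP, neither with overlap. The tetraspanin Tspan8 of the progenitor list averaged 118.9 ± 13.9 with EP+TPA and 23.6 ± 20.2 with EP. Sham means were 19.9 for Cel, 212.0 for Btn1a1, 130.7 for Tspan8 and 60.5 for Rb1.

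Levels in EP+RU486 and sham libraries were not tested against EP+TPA and are given as values. Haptoglobin (Hp) was at 2028 to 2577 with EP+TPA, 2092 to 2869 with EP+RU486, 490.0 to 899.7 with EP and 183.7 to 224.7 in sham libraries. Stc1 was at 38.0 to 49.2 with EP+TPA, 40.4 to 60.6 with EP+RU486, 7.58 to 17.0 with EP and 7.08 to 11.9 in sham libraries. In both genes every EP+TPA library lay above every sham library. Each also lay above every EP library, which was a condition of their selection. Steap4 was at 50.6 to 65.9 with EP+TPA and 13.9 to 21.7 with EP, and sham libraries averaged 66.1. Foxa1 was at 2.35 to 4.11 with EP+TPA and 2.77 to 4.62 with EP+RU486, below the 5.91 to 67.4 of EP and the 7.62 to 16.5 of sham libraries.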
